A study of Mus musculus with 36 samples.

Results

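RNA-seq libraries of Day 3 cells cultured with and without an inhibitor of DOT1L (DOT1Li) were compared. They were picked by their sample titles, which mark them as with or without SGC, and they are 2 of the 36 samples of the series, 1 library on each side. The study converts mouse epiblast stem cells (EpiSCs), which are in the primed state of pluripotency, toward naïve pluripotency with BMP4, and it follows a germ cell-like route and a trophoblast-like route that appear on the way. The DOT1Li libraries address what the inhibitor does to transcripts on Day 3 of that induction. Both cultures started from EpiSCs and, per the study's methods, were kept in iCD1 medium with vitamin C, bFGF, LiCl, LIF and the GSK3 inhibitor CHIR99021, to which BMP4 and the EZH2 inhibitor EPZ6438 are added. The library with DOT1Li received SGC0946 as well, at 1 µM per the methods, and the other received no DOT1L inhibitor. In the methods, the first-stage medium of the induction holds EPZ5676 or SGC0946. By that protocol the sorted Day 3 and Day 6 cells used further below had a DOT1L inhibitor too. The protocol text that both labels share names EPZ5676, another DOT1L inhibitor, and does not mention SGC0946, so the treatment was read from the titles and the paper. The labels give the cell type of both libraries as epiblast stem cell and do not state the line, the clone or whether cells were sorted. They describe libraries of total RNA depleted of ribosomal RNA, while the methods describe an mRNA kit.

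DOT1L is the enzyme that methylates histone H3 at H3K79, a mark of the bodies of transcribed genes, and it acts with AF9- and AF10-type partners that link it to the elongation machinery. Primordial germ cells (PGCs), the precursors of sperm and eggs, arise in the mouse from epiblast cells under BMP4 and share much of their transcription factor network with naïve pluripotent cells. HOX genes, which set positions along the body axis, are a textbook group of DOT1L-dependent genes in leukaemia with rearranged *Kmt2a*.

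The library with DOT1Li holds 4776143 expected counts, with at least 1 count on 16302 genes, and the library without it holds 4577685 on 15842. Expected counts are the reads that RSEM assigns to a gene, and TPM is the abundance it derives from them, corrected for transcript length and depth. Changes are log2 ratios, treated over untreated, after adding 1 to each TPM, and come with a 95% interval that covers the counting error of the expected counts alone. A gene was called higher or lower when it differed over 2-fold and its interval left out 0, and "rose" and "fell" are used below for called genes alone. With 1 library a side there is no replicate check and no test, and a lower share of cells of a type cannot be told apart from less RNA per cell.

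The markers set for the comparison differed between the libraries. *Nanog*, a core pluripotency factor, had 64.6 TPM with DOT1Li and 7.38 without, *Klf2*, a naïve factor, 121 and 15.6, and *Hoxa9* 29.7 and 167, so that the first pair was higher with DOT1Li and *Hoxa9* was lower. *Dot1l* itself had 66.8 and 62.1 TPM, a change of 0.10 (interval -0.03 to 0.24), so the transcript of the inhibited enzyme was near equal in both.

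Of 29267 genes in the files, 12109 had at least 20 expected counts summed over both libraries. Among them 368 (3.04%) rose and 149 (1.23%) fell with DOT1Li, 517 (4.27%) in all, and the median change of all 12109 was 0.00. HOX genes made up 23 of the genes that fell, out of 31 measured with a median of -1.45, and they are set apart from what follows. The same rule called 3.05%, 2.87% and 2.43% of genes between pairs of EpiSC libraries, 3.49% for the *c-Kit*+ pair and 5.2% for the *c-Kit*- pair, so the share called with DOT1Li lies within the range of replicate pairs, and a count of called genes alone does not set the treatment apart from library-to-library spread. The BV+SC+ pair reached 9.22%, but its labels name 2iJi for 1 library and GK15 for the other, so it is not taken as replicates here. The EpiSC and *c-Kit* libraries were shallower than the DOT1Li libraries, with 2444211 to 3070115 and 1726038 to 1841442 expected counts. Counting error thus weighs more in their shares. Of 407 called genes measured in at least 1 of the 5 EpiSC and *c-Kit* pairs, 353 changed by more than in any of them. Called genes were picked for large changes and this comparison was chosen after seeing the data, so it is no test. The direction of calls was uneven, with 368 higher against 149 lower. Which library of a replicate pair comes first is arbitrary, and the 5 pairs held between 120 and 341 genes in a direction. The most uneven of them, the *c-Kit*- pair, held 212 in one direction and 341 in the other. Per library size alone, without RSEM's effective length, 356 of the 517 were over 2-fold in the same direction, 277 higher and 79 lower, and 17 had the opposite sign.

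**Figure D1:**
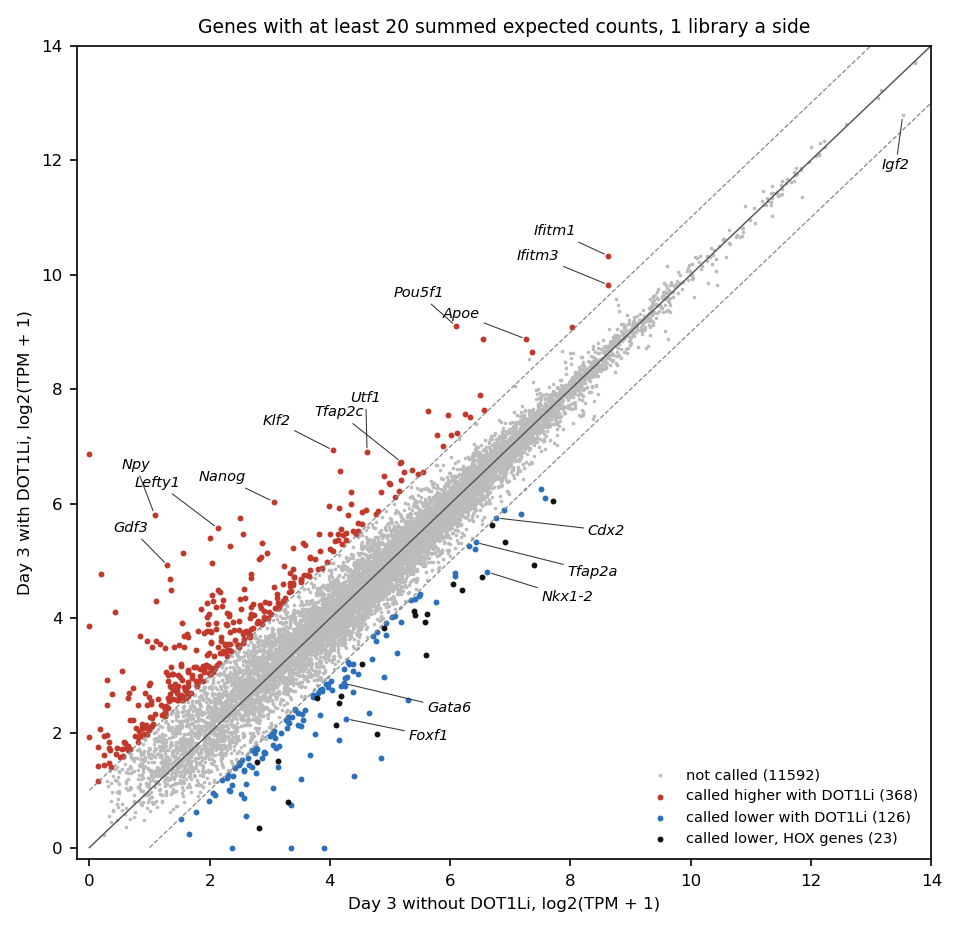
TPM + 1 on a log2 scale for each of the 12109 genes with at least 20 summed expected counts, without DOT1Li on the horizontal axis and with DOT1Li on the vertical axis, with lines at no change and at 2-fold. Red points (368) rose, blue (126) and black HOX (23) points fell, and *Pou5f1* and *Nanog* lie far above the diagonal while the most abundant transcripts lie near it.

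Core pluripotency genes held the largest median change among the gene groups examined. These groups were chosen with earlier results of these data known, so the ranking is a description only. Of 15 listed, 13 were measured, 8 rose and none fell, with a median of 2.29. Beside group counts here and below stand 3.04% higher and 1.23% lower among all genes measured. *Gdf3*, a TGF-beta family ligand of pluripotent cells (ENSMUSG00000030117, chromosome 6 of GRCm38, 122605403 to 122610087), had 29.5 TPM with DOT1Li and 1.46 without, and rose by 3.63 (interval 2.89 to 4.30). *Tdgf1*, which encodes the Nodal co-receptor Cripto, had 41.2 and 3.03 TPM (3.39, interval 2.74 to 4.05). The POU factor OCT4 is the product of *Pou5f1* (ENSMUSG00000024406, chromosome 17 of GRCm38, 35506018 to 35510772), the most abundant member of the group that rose, at 549 and 67.3 TPM. *L1td1*, an RNA-binding protein gene of pluripotent cells, had 94.8 and 17.03 TPM (2.41, interval 2.08 to 2.75), and *Foxd3*, a forkhead gene of the epiblast, had 11.2 and 0.94 (2.65, interval 1.85 to 3.31). The other members measured stood apart from these. *Sox2*, the partner of OCT4, had 101 and 57.7 TPM and was not called, and *Dppa2* had 5.62 and 2.76. *Sall4*, *Lin28a* and *Trim71* were abundant in both libraries and slightly lower with DOT1Li, with changes of -0.13, -0.21 and -0.56. *Sall4* encodes a zinc finger factor, and the products of *Lin28a* and *Trim71* act on microRNAs and messenger RNAs. *Fgf4* and *Dppa4* had too few counts to be measured.

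Of 16 genes of the naïve state, 11 were measured, 6 rose and none fell, with a median of 1.33. *Tdh*, the threonine dehydrogenase of mouse pluripotent cells, rose from 4.06 to 37.3 TPM (2.92, interval 2.31 to 3.55). *Nr5a2*, a nuclear receptor that can drive *Pou5f1*, rose from 1.15 to 11.2 TPM (2.50, interval 1.97 to 2.99). *Fbxo15*, a target of OCT4 and SOX2, had 5.21 TPM with DOT1Li and 0.98 without, from 17 and 3 counts, a change of 1.65 whose interval ran from 0.51 to 2.58. *Dppa3* also rested on 3 counts without DOT1Li. The change of *Klf2* exceeded those between replicate libraries by little, since EpiSC libraries differed by up to 2.77. Other naïve factors were not called. *Esrrb*, an orphan nuclear receptor, had 5.47 and 3.48 TPM, *Klf4* 13.3 and 6.79, and *Tfcp2l1* 4.27 and 3.62, all low in both libraries. *Tbx3*, a T-box gene of naïve cells and of mesoderm alike, was abundant and lower with DOT1Li, at 187 and 296 TPM (-0.66). *Zfp42*, *Nr0b1*, *Tcl1*, *Prdm14* and *Dppa5a* had fewer than 20 summed counts and were not measured.

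Among 16 PGC genes, 15 were measured, 10 rose and none fell, with a median of 1.26. The list overlaps others, so these counts are not separate. *Nanog* and *Lin28a* are also core pluripotency members, *Dppa3* and *Prdm14* naïve members, and *Ifitm1* and *Ifitm3* belong to the IFITM genes below. The core specification factors differed in level. *Tfap2c*, an AP-2 factor of both PGCs and trophoblast, had 105 and 35.5 TPM and rose, whereas *Prdm1*, the gene of the repressor BLIMP1, had 57.5 and 29.6, just under 2-fold. *Nanos3*, an RNA-binding survival factor of PGCs, had 24.7 and 1.54 TPM from 34 and 2 counts (change 3.34, interval 1.88 to 4.53, and 2.50 per library size). *Sox15*, an SRY-box gene of early PGCs, rose from 3.68 to 19.1 TPM (2.10, interval 1.03 to 3.20), and *Dnd1*, which protects germ cell transcripts from microRNAs, from 1.75 to 5.48 (1.23, interval 0.30 to 2.11). *Cbx7*, a PRC1 subunit that reads H3K27 methylation, rose from 11.03 to 37.7 TPM (1.68, and 1.23 per library size). *Itgb3*, the integrin subunit CD61 used to sort PGC-like cells, rose from 3.94 to 10.8 TPM (1.26). *Alpl*, tissue-nonspecific alkaline phosphatase, a classic PGC stain, had 168 and 85.4 TPM, a change of 0.97 just short of a call. *Kit*, the receptor that germ cells need to survive, was abundant in both libraries, at 119.6 and 102 TPM.

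The IFITM (Fragilis) genes, interferon-inducible membrane proteins that mark early PGCs, were among the most abundant genes that rose. *Ifitm1* had 1285 and 394 TPM and *Ifitm3* 903 and 396, with changes of 1.70 and 1.19. *Ifitm2* had 1143 and 776 TPM, 0.56, and shares 42% of its 75-base words with other genes, which makes its value less certain. Of 7 family members, 3 were measured, 2 rose and none fell. The wider interferon response was thinly measured. Of 16 genes, 5 were measured and 1 rose, *Bst2* (3 by CPM + 1), encoding the antiviral protein tetherin, from 28.9 to 89.2 TPM (1.59, beside up to 0.65 between replicate libraries). *Stat2*, a signal transducer of interferon, changed by 0.06, and *Isg15*, *Ifit1*, *Ifit3*, *Irf7* and *Mx1* were among those with too few counts. The median of the group was 0.06, and 1.47 per library size.

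**Figure D2:**
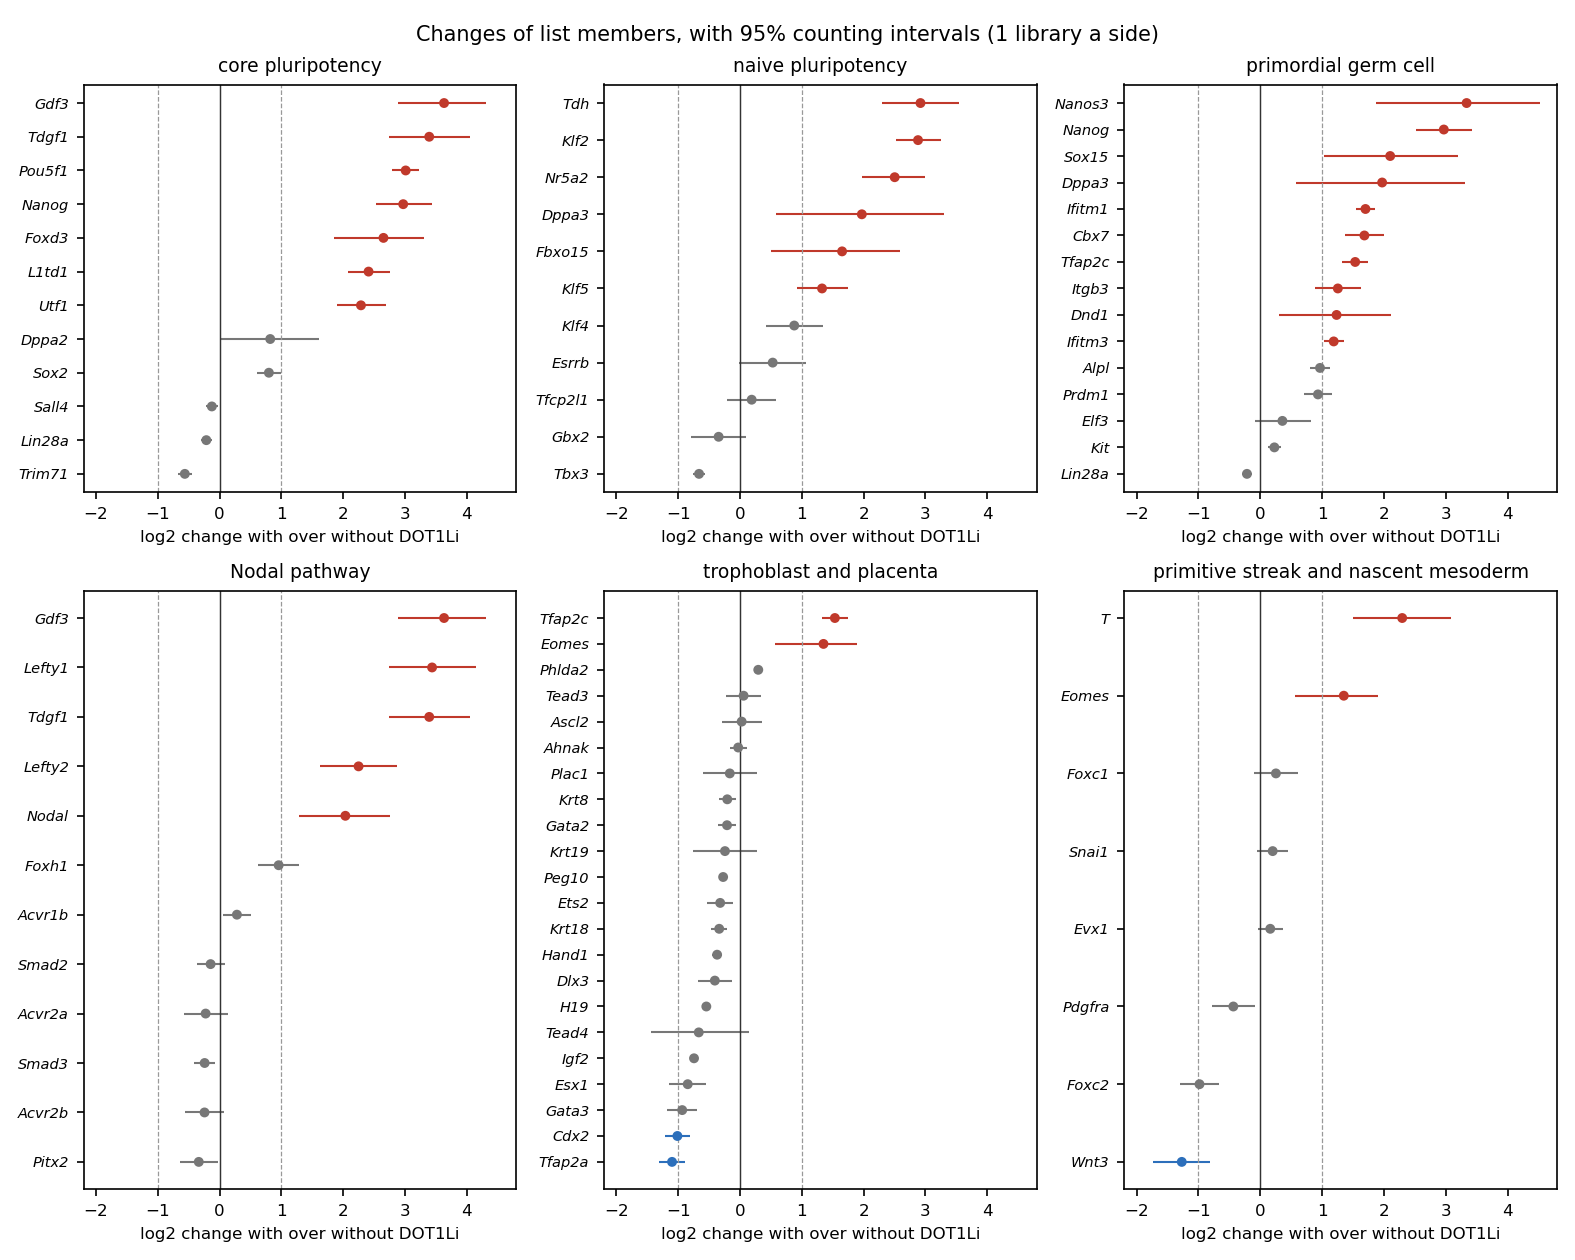
Change of each measured member (horizontal axis, log2, with over without DOT1Li) with its 95% counting interval for 6 gene groups, 1 row a gene reported here, red where it rose, blue where it fell and grey where not called. The top row, core pluripotency, naïve and PGC genes, sits mostly right of 0, while most trophoblast and placenta genes lie left of 0 by less than 2-fold.

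The Nodal pathway was the signalling group with the most genes that rose, 5 of 12 measured with none lower, with a median of 0.62 that was 0.28 with at least 100 summed counts. All 5 are ligands, co-receptors or antagonists outside the cell. The ligand *Nodal*, which keeps the epiblast pluripotent, rose from 2.12 to 11.8 TPM (2.03, interval 1.29 to 2.75). Its secreted antagonists rose too, *Lefty1* from 3.40 to 46.6 TPM (3.44, interval 2.74 to 4.15) and *Lefty2* from 3.16 to 18.8 (2.25, interval 1.63 to 2.87). *Tdgf1* and *Gdf3*, given above, complete the set. *Foxh1*, the nuclear partner of SMAD2, had 77.9 and 39.7 TPM and was not called. Receptors and SMADs differed little, *Acvr1b*, *Acvr2a* and *Acvr2b* by 0.28, -0.23 and -0.24, and *Smad2* and *Smad3* by -0.15 and -0.24.

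Genes of the primed epiblast did not move as a group. Of 12 measured, 3 rose and none fell, with a median of 0.12 that turned to -0.25 with at least 100 summed counts. The 3 were *Nodal*, *Lefty2* and *Zic5*, a zinc finger gene with 2.61 and 0.26 TPM (1.51, interval 0.83 to 2.07, 3 counts without DOT1Li). *Dnmt3b*, the de novo DNA methyltransferase of the primed state, had 40.4 and 39.1 TPM, and *Pou3f1* (OCT6) had 4.54 and 2.19. *Car14*, a membrane carbonic anhydrase, had 33.1 and 62.6. *Otx2*, *Fgf5* and *Zic2* had too few counts in these libraries.

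Trophoblast and placenta genes, the other route of the induction, were mostly not called, 18 of 22 measured. Of these 22, 17 lay below 0 and 5 above, with a median of -0.30, and 2 rose and 2 fell. *Tfap2a*, an AP-2 factor of ectoderm and trophoblast, fell from 84.9 to 39.1 TPM (-1.10), and *Cdx2*, the caudal factor of trophectoderm and posterior body, fell from 108 to 52.97 (-1.01). Replicate libraries differed by up to 1.18 and 0.84 at these genes, and *Cdx2* lost its call per library size (-0.99). The 2 that rose, *Tfap2c* and *Eomes*, are shared with PGCs and with the primitive streak. The trophoblast markers themselves were abundant in both libraries and not called. *Hand1*, a bHLH factor of giant cells and mesoderm, had 493 and 636 TPM, *Gata2* 82.1 and 95.1, and *Peg10*, an imprinted gene that the placenta needs, 1274 and 1538. The X-linked placental marker *Plac1* had 34.7 and 38.9 TPM, and *Krt18* and *Krt8*, simple epithelial keratins, changed by -0.34 and -0.20. *Phlda2*, which restrains placental growth, went the other way, at 2361 and 1921 TPM (0.30). *Elf5* and *Krt7* had too few counts.

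GATA factors were the group most evenly below 0 outside HOX. All 5 measured members had negative changes, with a median of -0.59, and 1 of them was called. *Gata6*, a factor of primitive endoderm and heart, had 6.30 and 17.8 TPM and fell. *Gata3* had 28.01 and 54.4, *Gata5* 2.70 and 4.55, and the GATA cofactor FOG1, from *Zfpm1*, 87.5 and 117. *Gata1* and *Gata4* had too few counts.

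Among lateral and extraembryonic mesoderm genes 1 of 13 fell and none rose, with a median of -0.24. *Foxf1*, a forkhead gene of the lateral plate, allantois and gut mesoderm (ENSMUSG00000042812, chromosome 8 of GRCm38, 121084386 to 121088144), had 3.75 TPM with DOT1Li and 18.3 without, and fell by 2.02 (interval -2.59 to -1.46), further than any other named gene outside HOX. *Msx1*, a homeobox gene that BMP induces, had 419.6 and 611 TPM (-0.54), and *Isl1*, of cardiac progenitors, had 23.9 and 42.1 (-0.79). *Twist1*, a bHLH gene of mesenchyme, had 40.1 and 25.3 (0.65) and *Bmp4* itself 17.3 and 12.1. The group was thus mixed in direction, with 8 genes below 0 and 5 above.

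Primitive streak genes rose in part. Of 8 measured, 2 rose and 1 fell, with a median of 0.18 that changed sign under other settings. *T* (brachyury), the T-box factor of the streak, had 16.9 TPM with DOT1Li and 2.64 without, a change of 2.30. *Eomes*, a T-box factor of streak and trophoblast, had 2.24 and 0.27 TPM (1.35, interval 0.57 to 1.90) from 20 and 2 counts. *Wnt3*, the ligand that starts the streak, fell from 15.3 to 5.77 TPM (-1.27), with up to 1.13 between replicates. *Evx1* and *Snai1* changed by 0.16 and 0.20, and *Mixl1*, *Mesp1*, *Tbx6* and *Gsc* were among those with too few counts.

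Groups of other lineages were thinly expressed. Of 18 endoderm genes 8 were measured, of which *Apoe*, the lipid carrier of yolk sac endoderm and also of naïve cells, rose from 153 to 469 TPM (1.61) and *Dab2*, an endocytic adaptor, from 6.51 to 16.5 (1.22, 0.71 per library size), while *Gata6* fell and *Sox17* had 3.61 and 3.38 TPM. *Foxa2*, *Afp* and *Ttr* had too few counts. Of 14 neuroectoderm genes 6 were measured and 2 fell, among them *Pax3*, of the dorsal neural tube and neural crest, from 7.75 to 1.65 TPM (-1.72). The median of that group, -0.19, changed sign under other settings, and *Pax6* and *Sox1* were not measured. Of 17 endothelial and blood genes 6 were measured and *Lmo2*, a LIM factor of blood progenitors that pluripotent cells transcribe too, rose from 4.03 to 15.5 TPM (1.72), while *Kdr*, the VEGF receptor, had 12.5 and 12.7. *Tal1*, *Cdh5* and *Gata1* were not measured. The medians of the endoderm and of the endothelial and blood groups were 0.26, which moved to 0.92 with at least 100 summed counts, and 0.23, the latter with a sign that changed under other settings.

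Fibroblast markers were near equal in sum, while single markers went both ways without a call. Per the methods, EpiSC lines are kept without feeder cells after their first passages. Of 10 listed, 5 were measured (*Col1a1*, *Col1a2*, *Col3a1*, *Thy1* and *Pdgfrb*), none was called, and their summed level was 297 TPM with DOT1Li and 290.5 without. Of these, 2 lay above 0 and 3 below, with *Col1a2* at 32.15 and 19.97 TPM and *Col3a1* at 6.30 and 8.36. The most abundant was *Col1a1*, at 210.1 and 224 TPM beside 0.4, 3.88 and 0.26 in the EpiSC libraries, and *Dcn*, *Lum*, *Postn*, *S100a4* and *Fap* had too few counts. The median was -0.09, with a sign that changed under other settings. Of the 5, 4 were tested in the sorted *c-Kit* libraries described below, and all 4 were higher in *c-Kit*- cells. Whether either DOT1Li library holds fibroblasts, and whether they contribute to other changes, was not tested.

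CDX factors and the TALE cofactors of HOX proteins lay below 0 more often than above. Of 10 measured, 1 fell, *Cdx2*, none rose, and 8 were below 0, with a median of -0.29. *Meis1* and *Meis2*, TALE homeobox genes, had 16.6 and 30.1 TPM and 97.6 and 149 TPM, with changes of -0.82 and -0.61. *Pbx2* and *Pbx3*, of the same class, were nearer 0, at 0.23 and -0.18. Limb and skeletal patterning genes were mostly not called, 11 of 13 measured. *Prrx1*, a homeobox gene of limb mesenchyme, rose from 1.72 to 5.91 TPM (1.35, interval 0.69 to 1.97), and the median of -0.04 changed sign under other settings. *Dlx5*, a distal-less gene, had 84.9 and 73.9 TPM and *Sall3* 6.02 and 11.

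Retinoic acid genes gave both directions as well, with 2 of 13 lower, 1 higher and a median of -0.06 whose sign changed under other settings. *Dhrs3*, a retinal reductase that retinoic acid induces, fell from 19.9 to 5.57 TPM (-1.67, interval -2.38 to -0.97). *Rarb*, a retinoic acid receptor and itself a target of the pathway, fell from 19.8 to 7.45 (-1.30, interval -1.72 to -0.89), with 32.1% of its 75-base words shared with other genes. *Cyp26a1*, which degrades retinoic acid, rose from 2.55 to 6.50 (1.08, interval 0.23 to 1.91). The binding proteins *Crabp1* and *Crabp2* were abundant and not called, at 392.3 and 411 TPM and 239.8 and 350.1 TPM.

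The WNT pathway, which CHIR99021 activates in both cultures, stayed near 0 as a group, with 3 of 35 higher, 2 lower and a median of -0.03 that changed sign under other settings. *Axin2*, the general feedback target, had 99.4 and 102 TPM (-0.03), and *Lef1*, a nuclear effector, had 43.2 and 38.2. The ligand *Wnt8a* rose from 3.12 to 20.3 TPM (2.37). The secreted inhibitors *Notum* and *Sfrp1* rose too, from 16.6 to 40.5 TPM (1.23) and from 3.16 to 7.40 (1.01). *Notum* shares 26.2% of its words with other genes, and *Sfrp1* lay just past 2-fold. The ligands *Wnt3* and *Wnt7b* fell, the latter from 3.91 to 1.31 TPM (-1.09), and *Dkk1*, an inhibitor of the LRP co-receptors, was abundant and lower without a call, at 184 and 288.

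BMP, SMAD and ID genes held no call among 21 measured, and their median was -0.13. The immediate targets of BMP4 in the medium were near equal, *Id1* at 791 and 658 TPM (0.27) and *Id3* at 779 and 834 (-0.10), and the feedback SMAD genes *Smad6* and *Smad7* changed by -0.31 and -0.39. Among 19 measured FGF-ERK genes 1 rose, *Egr1*, and the median was 0.15. The feedback inhibitors *Dusp6* and *Spry4* had 102 and 90.3 TPM and 51.3 and 43.8 TPM, and *Etv5*, an ETS target, had 151 and 106 (0.50). The LIF-STAT3 axis had no call among 12, with a median of 0.28. *Socs2*, a suppressor of cytokine signalling, had 139.5 and 70 TPM and lay just under the limit, while *Socs3*, the direct STAT3 target, had 113 and 112. Hedgehog and Hippo genes had no call either, among 6 and 9 measured, with medians of -0.24 and -0.23. *Ptch1*, the Hedgehog receptor and target, changed by -0.29, and the coactivator gene *Yap1* by -0.23. In the Notch pathway 1 of 13 rose and 1 fell (median 0.13). *Lfng*, the glycosyltransferase that tunes Notch, rose from 5.39 to 15.1 TPM (1.33), and the receptor gene *Notch4* fell by TPM, 2.33 and 7.57 (-1.36), but was higher by 0.59 per library size, so its direction is not settled.

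Immediate-early genes leaned upward, with 2 of 18 higher, none lower, 15 above 0 and a median of 0.31. *Fosb* rose from 16.8 to 60.2 TPM (1.78) and *Egr1* from 30.6 to 81.8 (1.39), and *Fos* had 266 and 135 (0.98). These genes respond within minutes to handling, and replicate EpiSC libraries differed at *Fosb*, *Egr1* and *Fos* by up to 2.88, 2.05 and 2.72, more than the changes with DOT1Li. Their part in the other changes was not tested.

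Epithelial genes rose in part, 4 of 19 higher and none lower, with a median of 0.15 that turned negative with at least 100 summed counts. *Esrp1*, an epithelial splicing regulator, rose from 3.59 to 17.7 TPM (2.03, beside up to 0.54 between replicates). *Epcam*, an adhesion molecule of epithelia and pluripotent cells, rose from 26.2 to 55.9 (1.07, interval 0.76 to 1.38). The claudins *Cldn3* and *Cldn7* of tight junctions rose from 4.95 to 11.5 and from 6.28 to 13.9 TPM, though *Cldn7* changed by 0.42 per library size. *Cdh1*, E-cadherin, had 22.9 and 12.3 TPM (0.85) and was not called. Mesenchymal genes had no call among 15, with a median of -0.28. *Cdh2*, N-cadherin, had 55.4 and 82.4 TPM (-0.56), and *Vim* 1506 and 1589. Among 13 surface markers 2 rose, *Epcam* and *Itgb3* (median 0.23), and *Cxcr4*, the chemokine receptor that guides migrating PGCs, had 30.5 and 15.6 TPM (0.92).

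Chromatin regulators were near equal in both libraries. The DOT1L complex and elongation partners held no call among 17, with a median of 0.04. *Mllt3* (AF9) and *Mllt10* (AF10), direct partners of DOT1L, had 32 and 38.2 TPM and 40.2 and 48.4 TPM, and *Ell2*, an elongation factor, had 16.95 and 8.59 (0.90), the furthest of the group. DNA methylation enzymes held none among 8 (median 0.01), with *Dnmt1* at 191 and 189 TPM and *Tet1* at 12.6 and 11.4. PRC2 and the H3K27 demethylases held none among 13 (median -0.04), with *Ezh2*, the enzyme that EPZ6438 inhibits, at 156 and 171, and *Suz12*, its core partner, at 62.96 and 41.5 (0.59). Among 15 PRC1 genes *Cbx7* alone was called (median 0.05). The medians of the last 3 groups changed sign under other settings.

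Imprinted genes were not called in any of 26 cases, with 12 above 0 and 14 below. *Igf2*, the fetal growth factor, was the transcript with the most counts without DOT1Li, 57111, against 35157 with it, and had 7044 TPM with DOT1Li and 11786 without (-0.74). It shares 60.7% of its words with other genes, so its level is uncertain. *H19*, its imprinted neighbour, had 430.3 and 628 TPM (-0.54), *Grb10*, an adaptor that curbs insulin signalling, 469.7 and 790.0 (-0.75), and *Mest* 785 and 1062 (-0.44). *Snrpn*, of the imprinted region on chromosome 7, went the other way, at 154 and 117 TPM (0.39). The median of the group was -0.04. The IGF axis had no call among 9 and a median of -0.09, 0.20 per library size.

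Housekeeping programs barely differed. Cell cycle genes had no call among 26 (median 0.11), with *Mki67* at 85.6 and 86.6 TPM. The furthest was *Cdk6*, a G1 kinase, at 6.29 and 3.17 (0.81), and the G1 cyclins *Ccnd1* and *Ccnd2* changed by 0.66 and 0.55. The p53 targets had no call among 14 (median 0.06), with *Cdkn1a* (p21) at 47.8 and 41.1 TPM. Among 13 genes of the integrated stress and unfolded protein responses 1 fell (median -0.06), *Ddit3* (CHOP), from 29.5 to 12.1 TPM (-1.22, -0.98 per library size). Glycolysis and cholesterol synthesis had no call among 20 and 22 (medians -0.02, with a sign that changed under other settings, and 0.12), with *Gapdh* at 8719 and 8860.3 TPM. Of 73 nuclear-encoded respiratory chain genes 1 rose (1.37%, beside 3.04% of all genes measured, median 0.08). It was *Cox6b2*, the testis-type isoform of a cytochrome c oxidase subunit, from 17.2 to 45.98 TPM (1.37). Among 11 amino acid transporters 1 rose (median 0.21), *Slc7a7*, from 9.13 to 22.7 TPM (1.23). Ribosomal protein genes and mitochondrial genes are not in the files and were not analysed here.

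Most called genes belong to none of these groups: 317 of the 368 that rose and 112 of the 149 that fell. Among protein-coding genes outside them with a mean of at least 5 TPM, over 2-fold also per library size and with under 25% shared sequence words, 116 rose and 18 fell. The 15 largest increases ended at 2.08, and the first of them rest on few counts. *Npy* had 52 counts with DOT1Li and 1 without (4.73, interval 2.90 to 5.84, 3.29 per library size), and *Rasgrp2* 32 and 3.01 (4.58, interval 3.98 to 5.09, 2.22 per library size). *Trh*, encoding the prohormone of thyrotropin-releasing hormone, had 16.3 TPM with DOT1Li and 0.34 without, from 51 and 1 counts (3.69, interval 2.51 to 4.25). *Pianp*, encoding a ligand of the receptor PILR-alpha, rose from 1.96 to 34.3 TPM (3.58, interval 2.91 to 4.22). *Spp1*, osteopontin, a secreted matrix protein that OCT4 can regulate, rose from 4.66 to 53.2 TPM (3.26, interval 2.58 to 3.97). *Mup6*, a major urinary protein gene, rose from 4.85 to 43.6 TPM, and *Ttyh1*, encoding a membrane channel, from 3.41 to 21.5. The other increases had functions in several compartments. *Ramp3* modifies the calcitonin receptor-like receptor (20.97 and 3.51 TPM), *Ap3b2* is a neuronal adaptor subunit (32.8 and 6.25), and *Cd59a* protects cells from complement (34.1 and 6.74). *Nmnat2* makes NAD (12 and 1.99), *Myb* is a transcription factor of progenitors (12.2 and 2.07), *Rbm47* is an RNA-binding protein gene (17.5 and 3.30), and *Pipox* is a peroxisomal oxidase (15.9 and 2.99). *1700019D03Rik*, at 21.6 and 1.56 TPM, completes the 15.

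Of the 15 largest decreases outside the groups, the largest was at *Nkx1-2*, a homeobox gene of the caudal epiblast, which fell from 97.3 to 27.1 TPM (-1.81, interval -2.02 to -1.60), beside up to 1.19 between replicates. *Dlx1*, a distal-less homeobox gene, fell from 10.4 to 3.34 TPM (-1.40), *Irx1*, an Iroquois homeobox gene, from 7.93 to 2.43 (-1.38), and *Prdm6*, a PR-domain gene of smooth muscle, from 44.3 to 20.5 (-1.07). *Gadd45g*, a stress-inducible gene that also acts in differentiation, fell from 66.3 to 26.7 TPM (-1.28). *Tnfsf9*, the ligand of 4-1BB, fell from 12.5 to 2.95 (-1.78), and the chemokine gene *Ccl25* from 18.1 to 6.03 (-1.44). *D630023F18Rik*, *2610528A11Rik*, *Tceal5*, *Cib2*, *Pcp4l1*, *Zfp711*, *Amigo1* and *Rnf24* fell by between 1.51 and 1.08. With the BV+SC+ pair included, libraries of a group differed by up to 1.52, 1.72 and 1.25 at *Tceal5*, *Cib2* and *Amigo1*. Those differences are larger than the falls of these genes, 1.19, 1.17 and 1.09. The other decreases exceeded such differences where they were measured.

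Levels in other cell states of the study show where these genes are otherwise expressed. They are given side by side as TPM, without a test, for 3 libraries of EpiSCs and 2 of Day 6 BV+SC+ cells, which were sorted on *Blimp1* and *Stella* reporters and are labelled 2iJi and GK15 in that order. *Pou5f1* had 2057, 2059 and 2078 TPM in the EpiSC libraries and 1509 and 1454 in the BV+SC+ libraries, both above the Day 3 levels. *Tdgf1* had 694, 674 and 666 in EpiSCs and 78.3 and 107 in BV+SC+ cells, *Lefty1* 517, 408 and 589 against 209 and 69.5, and *Foxd3* 103, 61.02 and 80.03 against 1.88 and 5.10, so these were higher in EpiSCs than in either Day 3 library. Others were near 0 in EpiSCs and high in BV+SC+ cells. *Ifitm1* had 3.09, 0 and 0 TPM in EpiSCs and 1589.6 and 2133 in BV+SC+ cells, *Tdh* 1.05, 0 and 0 against 807 and 641, and *Tfap2c* 0.68, 0.71 and 0.86 against 168 and 213. *Gdf3* had 0.91, 0.32 and 0.77 against 88.3 and 56.4, and *Dppa3* 0, 0 and 0 against 1162 and 1202. *Spp1* and *Ramp3*, from outside the groups, were also highest in EpiSCs, with 519, 615 and 562 TPM and 127, 124 and 138, beside 455 and 436 for *Spp1* and 3.94 and 10.8 for *Ramp3* in BV+SC+ cells. Of the genes that fell, *Foxf1* had 0, 0 and 0 TPM in EpiSCs and 0.05 and 0 in BV+SC+ cells, and *Gata6* 0, 0.2 and 0 against 0.04 and 0.19. *Ddit3*, which fell too, had 37.9, 25.3 and 23.9 TPM in EpiSCs. For *Igf2*, which was not called, the levels were 24.95, 21.95 and 23.4 against 169.8 and 75.9 TPM, and for *Hand1*, also not called, 0, 0.38 and 0 against 0.88 and 1.36, far under both Day 3 libraries. *Esrrb* had 273 and 287 TPM in BV+SC+ cells and 0.72, 0.6 and 1.28 in EpiSCs, beside 5.47 with and 3.48 without DOT1Li. *Ifitm3*, by contrast, had 903 TPM with DOT1Li and 747 and 988 in BV+SC+ cells.

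**Figure D3:**
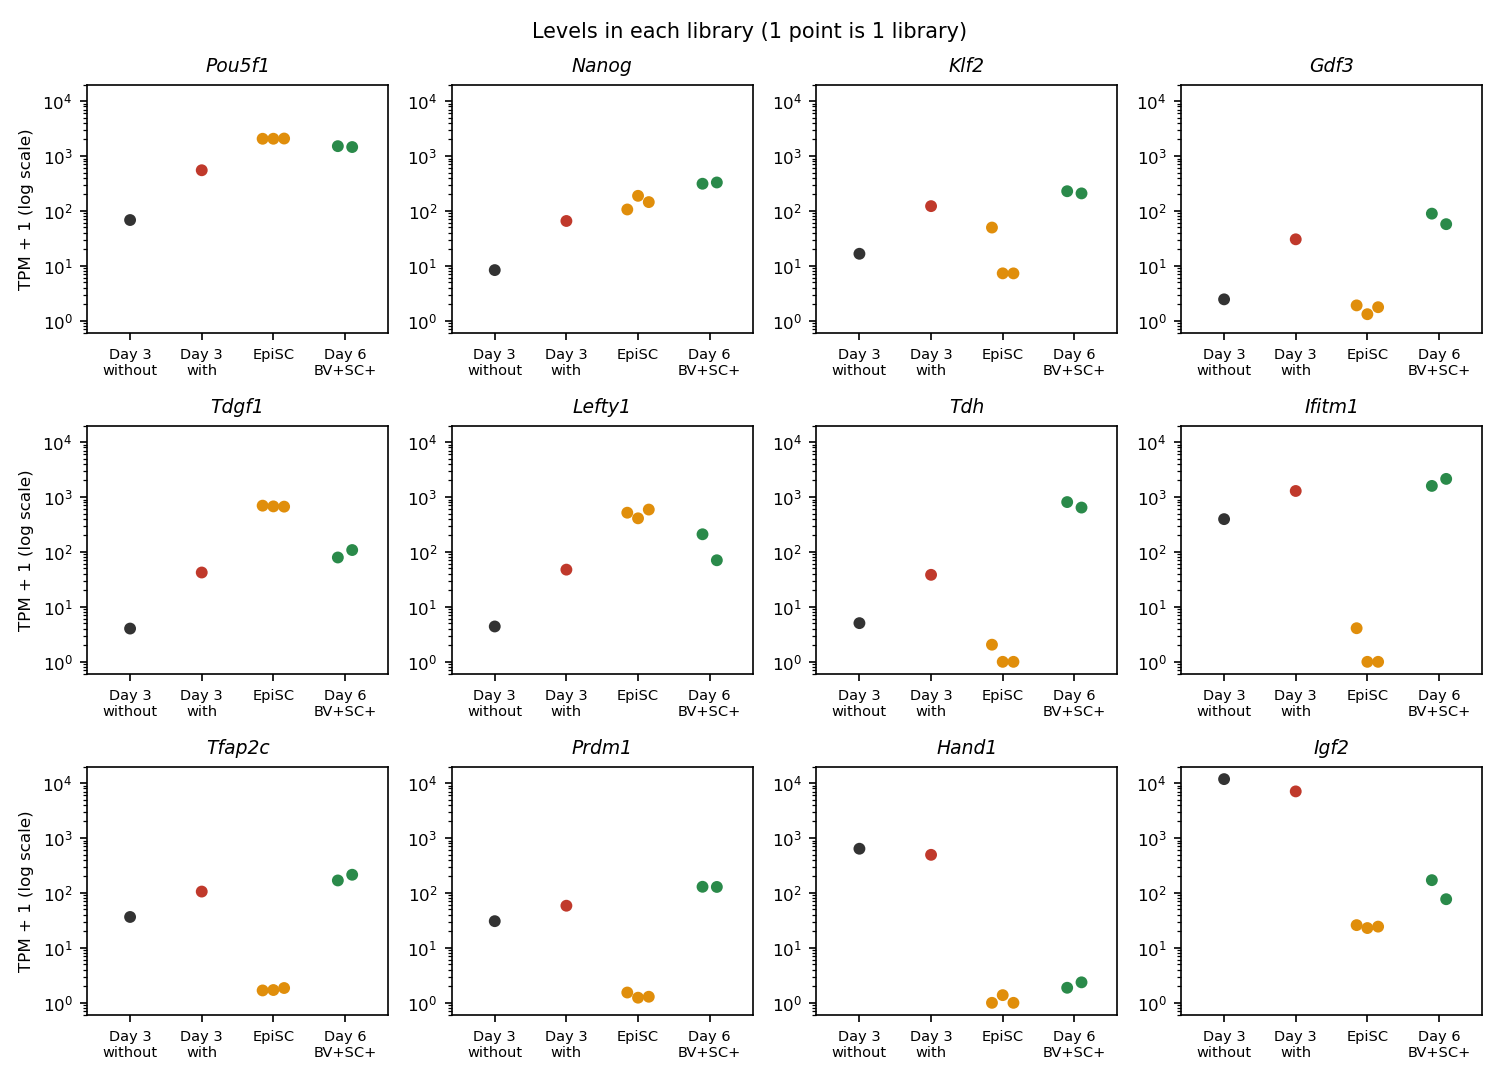
TPM + 1 on a log axis for named genes in Day 3 cells without and with DOT1Li (1 library each), EpiSCs (3) and Day 6 BV+SC+ cells (2), 1 point a library. *Pou5f1* is highest in EpiSCs, *Ifitm1* and *Tdh* are near 0 there, and *Hand1* and *Igf2* are highest in the Day 3 libraries.

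An independent readout of the same day came from cells of the induction sorted on *c-Kit*, with 2 libraries of *c-Kit*+ and 2 of *c-Kit*- cells, which share no library with the DOT1Li comparison. Per the methods, the induction medium holds a DOT1L inhibitor, so both sorted sides were read as treated with one. With edgeR's quasi-likelihood test, at an adjusted p under 0.05 and over 2-fold, 1099 of 11018 genes (9.97%) were higher on the *c-Kit*+ side and 1419 (12.9%) on the *c-Kit*- side. Of the 368 genes that rose with DOT1Li, 261 were tested there, and 132 of them (50.6%) were higher on the *c-Kit*+ side and 27 (10.3%) on the other, beside 9.67% and 12.4% of the 10439 genes tested in both. The 61 genes that fell and were tested held 10 (16.4%) of the *c-Kit*+ side and 16 (26.2%) of the *c-Kit*- side, and the latter share ran from 8.97% to 47.8% over the settings tried, beside 8.67% to 13.1% of all genes. Without the HOX gene among them, it was 10 (16.7%) and 16 (26.7%) of 60. The share of rising genes that were higher in *c-Kit*+ cells ran from 38.4% to 58.2% over the settings tried, and that of all genes from 6.07% to 11.6%. A comparison of these shares was not tested.

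By group, all 8 core pluripotency genes that rose were higher in *c-Kit*+ cells, as were 4 of 5 naïve genes, 7 of 9 PGC genes and 5 of 5 Nodal genes that rose and were tested there. Most members of these groups were so whether or not they rose, 11 of 13, 6 of 10, 10 of 14 and 7 of 12 in the same order, where the 10 PGC genes include *Kit*, on which the cells were sorted. The groups share members, such as *Nanog* in the core and PGC groups and *Gdf3* in the core and Nodal groups. *Gdf3* had 60.3 and 42.9 CPM (counts scaled to library size) in the *c-Kit*+ libraries and 0 and 0 in the *c-Kit*- libraries. *Lefty1* had 207 and 177 against 1.64 and 0, with a log2 fold change of 7.78 (edgeR adjusted p = 1.09e-06). Both are thus genes of the *c-Kit*+ side of Day 3. *Pianp* had 36.5 and 37.5 CPM in the positive and 4.93 and 2.78 in the negative libraries, and 13 of the 15 largest increases outside the groups were higher in *c-Kit*+ cells, with *Spp1* not called and *Rasgrp2* not tested. Some genes departed from this. *Itgb3*, *Rhox9*, *Notum* and *Sfrp1* rose with DOT1Li but belong to the *c-Kit*- side, with ratios of *c-Kit*+ to *c-Kit*- cells at -1.83, -2.75, -3.25 and -2.38 on the log2 scale, with adjusted p of 0.000354, 0.00613, 1.02e-05 and 0.000721 by edgeR. *Itgb3* had 22.6 and 14.1 CPM in the *c-Kit*+ libraries and 68.4 and 65.6 in the *c-Kit*- libraries. Among genes that fell, *Nkx1-2* and *Cdx2* were higher in *c-Kit*+ cells, by 4.15 and 1.53 on the log2 scale (adjusted p = 0.00236 and 0.0015 by edgeR). *Sox2* was far higher in *c-Kit*+ cells, at 236 and 253 against 0 and 1.67 CPM, and yet was not called with DOT1Li. Of 22 trophoblast genes 17 were higher in *c-Kit*- cells, and 12 of 15 FGF-ERK genes were higher in *c-Kit*+ cells.

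**Figure D4:**
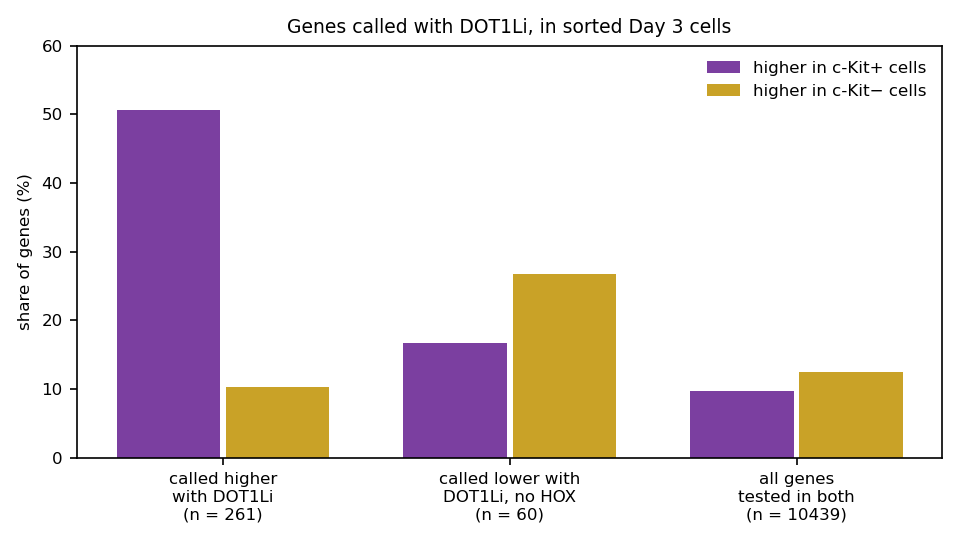
Bars give the percent of genes that edgeR calls for either sorted population, purple for *c-Kit*+ and yellow for *c-Kit*-, among genes that rose with DOT1Li (261), genes other than HOX that fell (60) and all 10439 genes tested in both. The bars for genes that rose stand at 50.6% and 10.3%, beside 9.67% and 12.4% for all.

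By position, genes that rose were spread over all chromosomes, from 1.49% of tested genes on chromosome 17 to 4.65% on the X chromosome (20 of 430). Among 12038 pairs of tested genes next to each other, both genes rose in 22 and both fell in 24, of which 20 hold a HOX gene. A run on chromosome 6 of GRCm38 from 122605403 to 122714633 holds *Gdf3*, *Dppa3* and *Nanog*, all of which rose, and *Ifitm1* and *Ifitm3* lie next to each other on chromosome 7. The following pairs were chosen after their values were seen. *Gstm6*, *Gstm2* and *Gstm1*, glutathione transferases on chromosome 3, changed by 1.18, 1.11 and 1.60, and *Gstt3* and *Gstt2* on chromosome 10 by 1.11 and 1.13. Outside HOX, the 4 pairs that fell together were *Irx1* and *Irx2* on chromosome 13 (-1.23 for *Irx2*), *Irf8* and *Foxf1* on chromosome 8 (-1.27 for *Irf8*), *Gm3604* and *Zfp935* on chromosome 13, and *Tmem215* and *Aptx* on chromosome 4.

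Promoters from RefSeq (GRCm38.p6, 250 bases before to 50 after each start) were found for 281 of the 368 genes that rose and for 87 of the 126 that fell outside HOX. Their median GC content was 60.3% and 61.0%, beside 61.8% for all tested genes, and the median number of CpG was 16 and 18 beside 22. A composite element of the OCT4 and SOX2 motifs was searched on both strands as TTTGCAT, 1 base of any kind, and ACAATG, because *Pou5f1* is in the group that moved most and *Sox2* encodes its partner. It occurred in 2 of 32851 promoters (0.00609%), which are the overlapping windows of 2 starts of *Nanog*. Counted by gene, 1 of the 281 genes that rose (0.356%) holds it, beside 1 of the 9370 tested genes with a promoter (0.0107%). That gene is *Nanog* in both counts, so the 2 shares cannot compare genes that rose with the rest. The sequence is shown because it is the promoter of the marker gene of the comparison, and it lies on the plus strand at chr6:122707391-122707450, with the element in capitals starting 75 bases before the nearer start and 151 before the other. A match is a description of the letters, and no match says only that these letters are not in the window.
*Nanog* promoter: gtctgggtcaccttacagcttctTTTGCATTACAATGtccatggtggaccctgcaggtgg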

How the data were processed

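Expected counts and TPM deposited by the authors (bcl2fastq, Bowtie2, RSEM 1.3.1) were used as given, with 2 exceptions. Expected counts were rounded to whole numbers for edgeR and DESeq2 on the *c-Kit* libraries, and for the TMM factors of the DOT1Li libraries. The DOT1L inhibitor change is log2((TPM with + 1)/(TPM without + 1)) over genes with at least 20 summed expected counts. Its 95% interval takes exact Poisson limits of each expected count and combines them by the square-and-add (MOVER) method, without simulation. A gene was called when it differed over 2-fold and the interval left out 0. Where a library held 3 counts or fewer the log2 change is given with its interval and no fold.

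The *c-Kit* libraries were compared with edgeR 4.0.16 (quasi-likelihood, Benjamini-Hochberg adjusted p under 0.05 and over 2-fold), and DESeq2 1.42.0 was an alternative. Other tools were Python 3.11.15, NumPy 2.4.6, pandas 2.3.3, SciPy 1.17.1, Matplotlib 3.10.9, R 4.3.3 and GENCODE M21 for positions.

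Genes are named if they belong to a list, if the paper names them, or, outside lists, if they are among the 15 largest increases or 15 largest decreases of called protein-coding genes with a mean of at least 5 TPM, over 2-fold also by CPM + 1, under 25% of 75-base words shared with other genes, HOX apart. *Gstm1*, *Gstm2*, *Gstm6*, *Gstt2*, *Gstt3*, *Irx2*, *Irf8*, *Gm3604*, *Zfp935*, *Tmem215* and *Aptx* are exceptions, taken from neighbouring calls after their values were seen. The 49 lists and their members were chosen with earlier results of these data known. Alternatives were other pseudocounts, CPM + 1, TMM, other count filters and a stricter interval, and for *c-Kit* RLE factors, DESeq2, other filters, unadjusted p, a replicate block and leaving out each library. Agreement by CPM and changes larger than between libraries of a group, with and without the BV+SC+ pair, were chosen after seeing the data. Ribosomal protein genes are absent from the files, and a few list members are not reported here.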

Additional observations from a re-analysis of the deposited data

How the results depend on the processing

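Main calls were 368 higher and 149 lower. The lower calls were 91 by CPM + 1, 239 with at least 1 summed count, 58 with at least 100 and 37 with intervals wholly past 2-fold. The higher calls were 135 with at least 100 counts and 104 with intervals wholly past 2-fold, 365 by CPM + 1, 353 by TMM and 490 with a pseudocount of 0.1. With 3 settings chosen after seeing the data, lower calls were 79 when also over 2-fold by CPM, 90 when larger than in every pair of libraries of a group and 69 when the BV+SC+ pair is left out of those, where fewer genes are measured. Higher calls under these 3 settings were 277, 285 and 284 in the same order. The BV+SC+ pair was planned as replicates, but its labels name 2iJi and GK15. Among 118 named genes, a change counted as kept when it stayed inside the gene's main counting interval, which a gene near the limit can do while losing its call, as *Sfrp1* does under TMM at 0.99. By that rule CPM + 1 kept 110, moved 7 and reversed 1, *Notch4*, at 0.59, the cause of which was not tested, a pseudocount of 0.1 kept 108 and moved 10, and TMM kept all 118. Medians of 15 of 47 lists changed sign under a setting, none of them over 0.226 in size.

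For the *c-Kit* overlap the main counts were 132 and 27 for rising genes and 10 and 16 for falling genes, in *c-Kit*+ and *c-Kit*- order. DESeq2 gave 6 and 7 for falling genes, and the cause was not tested. At least 10 counts in every library gave 57 and 15 for rising genes and 2 and 7 for falling genes. DOT1Li calls with CPM + 1 gave 5 falling genes higher in *c-Kit*+ cells, where fewer falling genes enter. DOT1Li calls over 2-fold also by CPM, chosen after seeing the data, gave 15 rising genes higher in *c-Kit*- cells and 4 falling genes higher in *c-Kit*+ cells. Leaving out each library in turn gave 41.9% to 48.3% of rising genes higher in *c-Kit*+ cells. With a replicate block for same-numbered libraries, which share only a number (correlation 0.0666), 1126 and 1399 genes were called, with overlaps of 131 and 28 for rising and 9 and 16 for falling genes.

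With 1 library a side, the intervals cover counting error only, and differences between cultures, handling or cell mixture cannot be separated from the inhibitor. The share of genes called lies within that of replicate pairs, so single genes, above all those with few counts, may not recur. By CPM, 17 called genes have the opposite sign, and the cause was not tested. The *c-Kit* libraries number 2 a side.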

Other observations

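Germline genes downstream of PGC specification were mostly silent in both libraries. Of 20 germline and meiosis genes 3 were measured, and *Stag3*, a cohesin subunit of meiosis, rose from 3.01 to 7.18 TPM (1.03, 0.55 per library size), with a group median of 0.02 whose sign changed under other settings. *Dazl*, *Ddx4* and *Sycp3* had too few counts. Of 32 *Rhox* genes, an X-linked homeobox cluster of germ cells and placenta, 3 were measured, *Rhox9* rose from 35.5 to 84.8 TPM (1.23), and *Rhox6* had 41.4 and 28.3 (median 0.53). Of the 2-cell genes, 8 are in the files, *Zscan4c* and *Zfp352* among them, and none reached 20 counts. Among 7 measured histone genes *Hist1h2bc* rose from 8.36 to 18.7 TPM (1.07, 0.92 per library size, group median 0.58), with 27.1% of its words shared with other genes.

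Collagens and laminins held 2 rising genes and 1 falling gene among 32 (median -0.04). *Col24a1*, a fibrillar collagen, rose from 1.15 to 18.8 TPM (3.20) and *Lama4*, a laminin chain of vessels, from 4.61 to 12.98 (1.32), but per library size these changed by 0.74 and 0.72. *Col9a3*, a cartilage collagen, fell from 5.92 to 2.28 TPM (-1.08, -0.31 per library size), so none of the 3 was over 2-fold by that measure.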
